A study of Homo sapiens with 22 samples.

Results

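SUDHL4 and SUDHL6 are the 2 cell lines of the germinal centre type (GCB) of diffuse large B-cell lymphomas (DLBCL) among the 11 established B-cell lymphoma lines of this array series. They were chosen by cell line alone, as the only lines that the study's methods place in this type, and contributed 4 of the 22 arrays. The other 9 lines were Raji, BL41 and Ramos from Burkitt lymphoma (BL), HLY-1, OciLy3 and OciLy10 from activated B-cell type DLBCL (DLBCL ABC), and K422, SC-1 and ROS50 from follicular lymphoma (FL). Each line gave an untreated culture and a culture that received 5-aza-2′-deoxycytidine (aza, 1 µM) every 24 h for 72 h and trichostatin A (TSA, 0.5 µM) for the last 12 h. Each condition of a line was measured on 1 array, no culture received aza or TSA alone, and every treated culture of the series received both agents. The questions were which genes changed after aza/TSA in both GCB lines, and whether their response differed from that of the other 9 lines.

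Aza is a cytidine analogue that is built into DNA and traps DNA methyltransferases, so that methylation is lost as cells divide, and promoters silenced by methylation can be transcribed again. TSA inhibits histone deacetylases, which raises histone acetylation and both activates and represses genes within hours. GCB DLBCL resembles B cells of the germinal centre, where BCL6, a transcriptional repressor, and LMO2, a transcriptional cofactor, are highly expressed, whereas the ABC type resembles B cells on the way to plasma cells and expresses IRF4.

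The values below are log2 signals after quantile normalization, on which every array has a median of 10.18, and a difference of 1 is a 2-fold change. Untreated SUDHL4 and SUDHL6 expressed germinal centre genes, but not every marker set them apart from the other lines. LMO2 was at 14.34 and 15.91, above all other 9 lines (8.15 to 13.48). BCL6 was at 16.45 and 16.04, with SUDHL6 inside the range of the others (11.58 to 16.24). Over 13 measured genes of a germinal centre type classifier, the median was 15.01 and 15.91, against 11.16 to 15.48 in single other lines. IRF4 was at 10.07 and 11.49, inside the range of the other lines (8.39 to 16.27, median 13.36). FOXP1, a transcription factor that is high in the ABC type, was at 13.22 and 12.74, below all of them (13.82 to 16.74). FOXP1 is a single member picked from the ABC classifier and was not among the ABC markers fixed beforehand. Over 19 ABC classifier genes, the median was 10.61 and 11.87, inside the 10.18 to 15.84 of single other lines. The untreated levels of MME, GCSAM and S1PR2 are not given one by one, nor are those of the ABC markers TNFRSF13B, PIM2, CCND2, BATF and ENTPD1. The B-cell genes MS4A1 (17.44 and 18.98) and CD79A (17.43 and 18.89) were high, while CD3D (8.14 and 8.44) and CD2 (7.75 and 8.78) of T cells lay below the array median. CD247, another T cell gene, was at 14.76 and 12.48, within the range of the other lines (10.76 to 15.33), and the myeloid gene CD14 was at 11.17 in SUDHL4 and 10.09 in SUDHL6. SERPINA9 and MYBL1 could not be assigned to an element here. No element differed in untreated level between the GCB lines and the other 9 (0% of 32878; smallest adjusted p = 0.144 from limma, 1809 elements at an unadjusted p under 0.05), and none did after treatment (0%; smallest adjusted p = 0.117, 1623 elements).

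SUDHL4 shares a technical feature with HLY-1 and OciLy10. Before normalization the 75th percentile of the signals was 2901 to 4547 on the 6 arrays of these 3 lines and 4310 to 15058 on the other 16 arrays, SUDHL6 included. Results of the GCB lines are therefore also given without SUDHL4 where a call depends on it. Because each line has 1 array per condition, the lines are the replicates, and p-values measure the spread between lines.

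Promoters of 4 genes are shown, and none of these genes was called lower in the GCB lines. DHRS2 and SYCP3 had the largest increases in the GCB lines. ENKD1 increased more in both GCB lines than in any other line. PPP1R14A, a gene that the study carried to methylation analysis, was not higher in both GCB lines, as it was in all other lines. The sequences are from RefSeq (GRCh38.p14), 250 bases before and 50 bases after the annotated start, written 5′ to 3′ on the strand of the gene. CG dinucleotides, the sites that DNA methyltransferases modify, are in capitals.
DHRS2, chr14:23629865-23630164, plus strand: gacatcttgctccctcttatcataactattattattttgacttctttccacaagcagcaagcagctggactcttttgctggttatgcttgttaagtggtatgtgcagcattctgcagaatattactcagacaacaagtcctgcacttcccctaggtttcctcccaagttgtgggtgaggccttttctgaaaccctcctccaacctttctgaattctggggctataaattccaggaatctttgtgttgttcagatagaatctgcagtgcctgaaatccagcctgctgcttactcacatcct
SYCP3, chr12:101739413-101739712, minus strand: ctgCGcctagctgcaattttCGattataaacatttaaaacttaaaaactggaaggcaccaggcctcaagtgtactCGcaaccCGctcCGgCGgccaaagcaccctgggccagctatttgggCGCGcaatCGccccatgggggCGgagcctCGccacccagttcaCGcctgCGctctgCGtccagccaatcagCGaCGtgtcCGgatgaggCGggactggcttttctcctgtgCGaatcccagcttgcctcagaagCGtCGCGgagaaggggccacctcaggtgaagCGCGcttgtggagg
ENKD1, chr16:67666701-67667000, minus strand: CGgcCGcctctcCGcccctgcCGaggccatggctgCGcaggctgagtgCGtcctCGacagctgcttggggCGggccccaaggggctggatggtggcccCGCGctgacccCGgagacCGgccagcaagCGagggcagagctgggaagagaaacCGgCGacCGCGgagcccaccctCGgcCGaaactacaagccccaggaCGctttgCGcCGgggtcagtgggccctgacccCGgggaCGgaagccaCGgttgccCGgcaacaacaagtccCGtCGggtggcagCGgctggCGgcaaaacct
PPP1R14A, chr19:38256325-38256624, minus strand: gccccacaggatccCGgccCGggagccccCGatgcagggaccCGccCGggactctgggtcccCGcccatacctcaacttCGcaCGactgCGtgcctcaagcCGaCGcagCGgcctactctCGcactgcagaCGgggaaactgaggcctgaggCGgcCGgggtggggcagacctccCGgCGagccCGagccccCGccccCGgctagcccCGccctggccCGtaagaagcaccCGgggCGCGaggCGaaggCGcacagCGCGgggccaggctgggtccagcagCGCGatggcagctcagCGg

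The DHRS2 window holds 0 CG dinucleotides, as do 3.96% of the 35116 promoter windows of this length. The SYCP3 window holds 24, and 33.9% of windows hold at least as many. The ENKD1 window holds 30 (22.4% of windows) and the PPP1R14A window 33 (17.2% of windows). Of 15461 genes named on the array, 12545 had a promoter window, with a median of 25 CG dinucleotides. The median was 28 both for genes at least 2-fold higher and for genes at least 2-fold lower in both GCB lines. For the 10 largest increases described below it was 30.5, and for the 10 largest decreases 4, with 8 genes matched to a window in each. These counts describe the letters of the reference and say nothing of methylation in these cells, which was not measured on the arrays. The study scored the PPP1R14A promoter and others by methylation-specific PCR in these lines, and those scores are given below.

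After aza/TSA, 566 elements rose (1.72% of 32878) and 651 fell (1.98%) in the GCB lines at an adjusted p under 0.05 from limma, in a fit of the 11 treated minus untreated differences that takes the spread from all lines. In the other 9 lines, the same fit called 3195 elements higher (9.72%) and 3474 lower (10.6%). The median standard error was 0.26 in the 9 lines and 0.55 in the 2 GCB lines, so the counts of the 2 groups rest on unequal precision and were not compared, here and in the gene lists below. The GCB calls rest on both lines: without SUDHL4, 6 elements rose and 1 fell, and without SUDHL6, 58 rose and 51 fell.

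By size alone, the GCB lines were within the range of the others. In SUDHL4, 5376 elements were at least 2-fold higher and 5515 at least 2-fold lower after treatment, and in SUDHL6 these numbers were 4875 and 5024. The other 9 lines had 3955 to 5601 higher and 3958 to 5920 lower elements, and the numbers of the GCB lines did not differ from theirs (two-sided exact permutation test over lines, p = 0.727 and p = 0.8; the smallest p that 55 ways of choosing 2 of 11 lines allow is 0.0364). At least 2-fold higher in both GCB lines were 1771 elements (5.39%), which is 32.9% of the SUDHL4 list and 36.3% of the SUDHL6 list. At least 2-fold lower in both were 1902 elements (5.79%), 34.5% and 37.9% of the lists. Another 751 elements passed 2-fold in opposite directions, 1.16% of all elements with SUDHL4 higher and 1.13% with SUDHL6 higher. Across all elements, the responses of SUDHL4 and SUDHL6 correlated with r = 0.398, rank 10 of the 55 pairs of lines. As a description, since all pairs share the same array elements, r was 0.241 to 0.377 between SUDHL4 and the other 9 lines, 0.298 to 0.44 between SUDHL6 and these lines, and 0.236 to 0.461 among the 9.

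**Figure D1:**
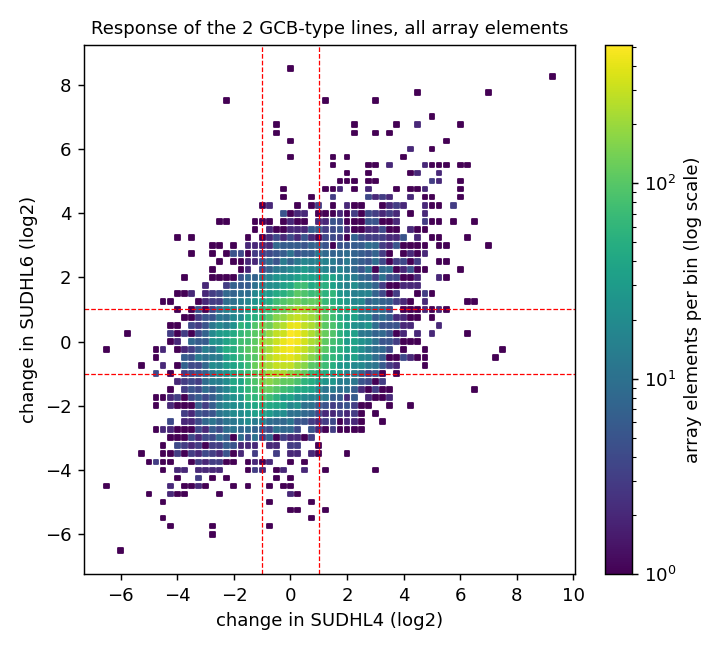
Change after aza/TSA (treated minus untreated, log2) of all 32878 array elements in SUDHL4 (x axis) and SUDHL6 (y axis). The colour gives the number of elements per bin on a log scale and the dashed lines mark 2-fold changes; 1771 elements lie past 2-fold in both lines at the upper right, 1902 at the lower left and 751 in the 2 opposite corners.

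The largest increase in both GCB lines was that of DHRS2, a short-chain dehydrogenase. DHRS2 was at 7.54 in untreated and 16.86 in treated SUDHL4, and at 8.28 and 16.53 in SUDHL6. Both treated values were far above both untreated ones. The log2 fold change was 8.79 ± 1.58 (estimate ± SE, n = 2 lines, adjusted p = 0.0128 from limma). Here and below, the SE takes its spread from all 11 lines and does not measure the disagreement between SUDHL4 and SUDHL6. For DHRS2, the SD between these 2 lines was 0.76. SYCP3, which builds the synaptonemal complex between paired chromosomes in meiosis, went from 8.24 to 14.24 in SUDHL4 and from 8.95 to 15.71 in SUDHL6. It was below the array median in both untreated lines, and its log2 fold change was 6.38 ± 0.72 (adjusted p = 0.00326). In the other 9 lines the increase of DHRS2 ranged from 1.44 to 10.8 and that of SYCP3 from 4.64 to 8.14, so both GCB lines lay within these ranges.

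The other 8 of the 10 largest increases were in genes of varied function. BLVRA, which encodes biliverdin reductase, went from 9.07 to 13.99 in SUDHL4 and from 7.95 to 14.94 in SUDHL6 (log2 fold change 5.95 ± 1.41, adjusted p = 0.0378). TCN2, the vitamin B12 carrier transcobalamin, went from 8.62 to 13.17 and from 8.32 to 15.1 (5.66 ± 0.77, adjusted p = 0.00453). The neuronal pentraxin NPTX2 rose by 5.89 log2 units, the lysosomal protease CTSV by 5.56 and the melanosome protein PMEL by 5.42. BAG3, a co-chaperone of heat shock proteins, and THEMIS2, a signalling protein of B cells, rose by 5.31 and 5.26. None of BLVRA, TCN2, NPTX2, CTSV, PMEL, BAG3 and THEMIS2 had both GCB lines outside the range of the other 9. REEP6, a protein that shapes the endoplasmic reticulum, did: it went from 9.02 to 14.35 in SUDHL4 and from 8.86 to 14.13 in SUDHL6 (5.31 ± 0.59, adjusted p = 0.00326), against increases of 1.82 to 5.15 in the others. The difference for REEP6 did not pass adjustment (1.76 ± 0.66, unadjusted p = 0.0196 from limma).

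The largest decrease was that of TNFRSF17, the receptor BCMA of plasma cells. It was at 14.44 in untreated and 8.52 in treated SUDHL4, and at 16.61 and 10.05 in SUDHL6, so that both treated values lay below the array median (log2 fold change -6.24 ± 1.07, adjusted p = 0.0109 from limma). IRAG2, a lymphoid protein of the endoplasmic reticulum, went from 17.88 to 11.5 and from 17.76 to 13.14 (-5.5 ± 1.09, adjusted p = 0.019). RGS13, a regulator of G protein signalling in germinal centre B cells, went from 16.32 to 11.38 and from 16.65 to 11.99 (-4.8 ± 0.73, adjusted p = 0.00784). TNFRSF17, IRAG2 and RGS13 were lower after treatment in all 9 other lines as well.

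PTPRC, the leukocyte phosphatase CD45, went from 15.41 to 11.01 in SUDHL4 and from 15.63 to 10.55 in SUDHL6 (-4.74 ± 0.74, adjusted p = 0.00819), and its second, dimmer element fell by 3.31. GRAP, an adaptor of receptor signalling to Ras, went from 12.83 to 8.69 and from 14.78 to 9.07 (-4.93 ± 0.79, adjusted p = 0.00891). Its change in the other 9 lines was -3.2 to 0.98, so both GCB lines lay below them, but the difference did not pass adjustment (-3.25 ± 0.87, unadjusted p = 0.0027). PVRIG, an inhibitory receptor of lymphocytes (-4.93), the Ras activator RASGRP3 (-4.43), the Notch regulator DTX1 (-4.36), TMEM156 (-4.35) and the amino acid transporter SLC38A5 (-4.27) complete the 10 largest decreases. The 20 genes of both directions were picked among genes past limma's threshold and at least 2-fold changed in both lines, so neither property is a separate result. None of these calls holds without SUDHL4, when SUDHL6 stands alone.

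**Figure D2:**
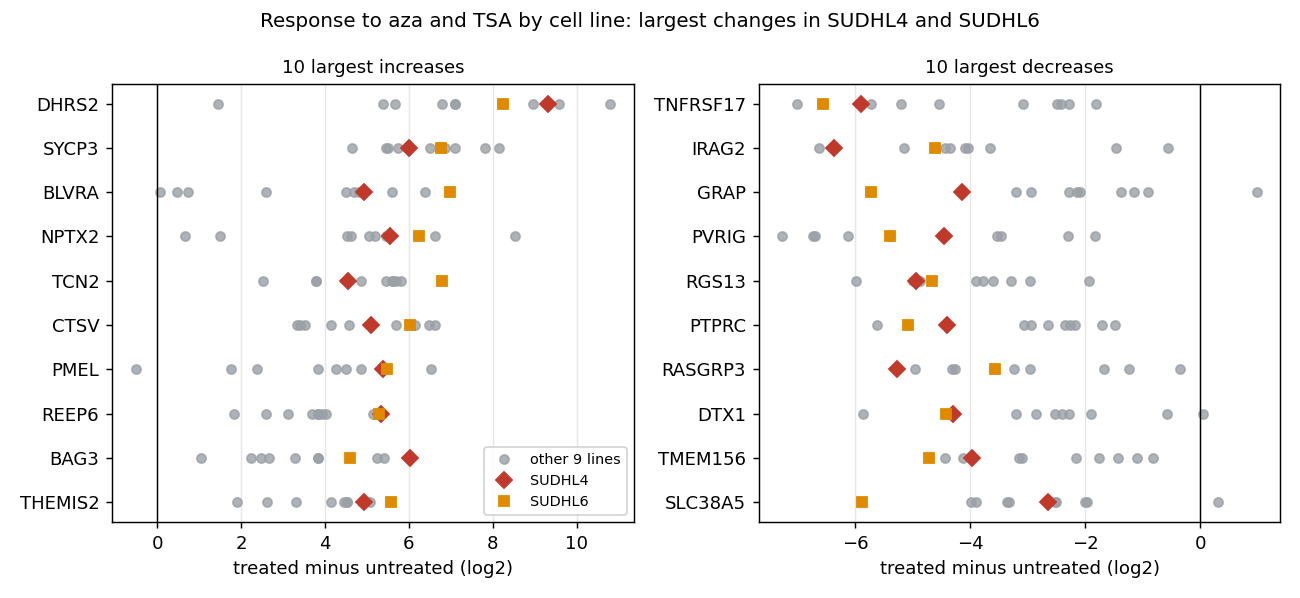
Change after aza/TSA (treated minus untreated, log2) of the 10 genes with the largest increase and the 10 with the largest decrease in the GCB lines, with 1 point per line. SUDHL4 (red diamonds) and SUDHL6 (orange squares) lie among the other 9 lines (grey) for most genes; both lie above them for REEP6 and below them for GRAP.

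Of 27 measured B cell identity genes, 11 fell in the GCB lines, 0 rose and 16 were not called. The median log2 fold change of the list was -2.58, against -0.01 over all elements, of which 1.98% fell. The lists hold named genes with 1 element each, for which all 15461 named genes are the nearer background. Of these, 390 rose and 427 fell, a larger share than of all elements, and their median was -0.03. This holds for all lists below. POU2AF1, a coactivator of B-cell transcription, went from 18.0 to 14.11 in SUDHL4 and from 17.3 to 13.92 in SUDHL6 (-3.63 ± 0.5, adjusted p = 0.00466 from limma). BLNK, an adaptor that couples the B-cell receptor to its kinases, went from 15.16 to 11.72 and from 16.41 to 11.93 (-3.96 ± 0.57, adjusted p = 0.00599). MS4A1, which encodes CD20, went from 17.44 to 14.24 and from 18.98 to 14.79 (-3.7 ± 0.93, adjusted p = 0.0479). The other members that fell were the receptor genes CD79A, CD79B and CD22, the kinases BTK and BLK, the transcription factors IKZF1 and EBF1, and FCRLA. At least 2-fold lower in both GCB lines were 20 of the 27 genes. The list did not fall as a whole: PAX5 changed by -2.17 in SUDHL4 and by 1.78 in SUDHL6, and CR2 by 2.47 and 0.28. In a bulk culture, fewer cells that express a gene and less RNA per cell cannot be told apart.

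EBF1, which specifies the B-cell lineage, was 1 of 2 genes of the list for which both GCB lines lay below all 9 others. It went from 14.16 to 12.59 in SUDHL4 and from 12.3 to 9.99 in SUDHL6 (-1.94 ± 0.39, adjusted p = 0.0212), while the other 9 lines changed by -0.99 to 0.57. The difference of -1.61 ± 0.44 did not pass adjustment (unadjusted p = 0.00281). The other was PLCG2, a phospholipase of B-cell receptor signalling, which changed by -0.78 in SUDHL4 and -1.43 in SUDHL6 without passing the test (-1.1 ± 0.37, adjusted p = 0.129) and by -0.67 to 0.73 in the other lines. The median of the B cell list was -2.27 in SUDHL4 and -2.36 in SUDHL6, below the medians of the other 9 lines, which were -2.11 to -1.05. Of 14 T cell markers and 9 myeloid markers, 0 were called in either direction in the GCB lines, beside 1.72% and 1.98% of all elements. The T cell kinase gene LCK went from 14.16 to 10.97 and from 15.72 to 12.38 without passing (-3.26 ± 0.88, adjusted p = 0.0619), and 1 T cell marker was called lower under some alternatives, such as a variance trend. Before treatment the median of the T cell list was 8.75 in SUDHL4 and 8.73 in SUDHL6, below the array median.

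Of 13 measured genes of the germinal centre type classifier, 4 fell and 0 rose (median -2.63), beside 1.98% of all elements that fell. Beside RGS13 and IRAG2, these were ITPKB, an inositol phosphate kinase, from 12.35 to 8.42 in SUDHL4 and from 11.16 to 7.59 in SUDHL6 (-3.75 ± 0.62, adjusted p = 0.0101), and BCL7A, a chromatin remodelling subunit, from 15.44 to 12.98 and from 15.91 to 12.42 (-2.98 ± 0.46, adjusted p = 0.00803). In the other 9 lines, 7 of these 13 genes fell. At least 2-fold lower in both GCB lines were 9 of the 13. BCL6 and LMO2 were not called: BCL6 changed by -2.62 in SUDHL4 and -1.56 in SUDHL6, and LMO2 by -0.99 and -2.76. NEK6, also not called, changed by -4.05 and -3.93, just below the -3.90 to 1.69 of the other 9 lines. Of 19 ABC classifier genes, 1 rose in the GCB lines and 0 fell, beside 1.72% of all elements that rose, too few calls for a result about the list. The gene that rose was the phosphatase PTPN1 (1.99 ± 0.41, adjusted p = 0.0233 from limma). None of 13 targets of BCL6 repression and none of 19 NF-kB targets passed the test in either direction, beside 1.72% and 1.98% of all elements. Without SUDHL4, no gene of any list passed.

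Of 12 plasma cell genes, 3 fell and 0 rose, beside 1.98% of all elements that fell. Beside TNFRSF17, these were MZB1, a chaperone of immunoglobulin assembly, which went from 15.56 to 12.77 in SUDHL4 and from 14.13 to 11.46 in SUDHL6 (-2.73 ± 0.65, adjusted p = 0.0375), and CD38, a surface enzyme, from 14.12 to 11.81 and from 15.19 to 12.95 (-2.28 ± 0.39, adjusted p = 0.0108). CD38 changed by -1.79 to -0.2 in the other 9 lines, so both GCB lines lay below them, and the difference did not pass adjustment (-1.39 ± 0.43, unadjusted p = 0.00673). TNFRSF17, MZB1 and CD38 are also expressed by germinal centre B cells or their lymphomas. Of 11 HLA class II genes, 1 fell, beside 1.98% of all elements, and the list had a median of -0.37. The gene that fell was HLA-DOB, a modulator of peptide loading, from 14.25 to 11.58 and from 14.35 to 11.62 (-2.71 ± 0.5, adjusted p = 0.0141 from limma). Of 15 genes of the BCL2 family, 1 fell, beside the same 1.98%. It was the survival gene BCL2L1 (-3.4 ± 0.79, adjusted p = 0.0359 from limma), while BCL2 itself changed by -0.72 ± 0.33 (adjusted p = 0.277). Single calls in lists as short as these last 2 are not results about the lists.

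Of 13 measured genes of the list of known responders to histone deacetylase inhibition, 5 rose, 0 fell and 8 were not called, and the median was 3.26, beside 1.72% of all elements that rose. Besides DHRS2, the histone gene H2BC21 went from 8.79 to 15.21 in SUDHL4 and from 9.99 to 13.8 in SUDHL6 (5.11 ± 0.56, adjusted p = 0.00326 from limma). H2BC12, another histone gene, went from 12.9 to 17.91 and from 11.12 to 16 (4.94 ± 0.58, adjusted p = 0.00326), above the 1.38 to 4.47 of the other 9 lines (unadjusted p of the difference 0.0116, not past adjustment). The actin-severing protein gelsolin, GSN, rose by 4.38 and the testis chaperone HSPA2 by 4.96. CDKN1A, the cell cycle inhibitor p21, went from 10.89 to 13.99 and from 11.13 to 14.55, a similar change in both lines that did not pass (3.26 ± 0.88, adjusted p = 0.0619). KLF6 changed by -1.41 in SUDHL4 and -0.26 in SUDHL6, and GADD45A by 0.15 and 0.02. In the other 9 lines, 12 of these 13 genes rose.

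The Polycomb repressive complex 2 methylates histone H3, and its catalytic subunit EZH2 is well known in germinal centre B cells. Of 11 genes of this complex, 1 rose and 1 fell, beside 1.72% and 1.98% of all elements. These are too few calls for a result about the list. JARID2, an accessory subunit that recruits the complex, went from 10.13 to 13.29 in SUDHL4 and from 10.29 to 14.03 in SUDHL6 (3.45 ± 0.42, adjusted p = 0.00326). The increase of JARID2 was 1.22 to 2.75 in the other 9 lines, below both GCB lines, and the difference did not pass adjustment (1.43 ± 0.46, unadjusted p = 0.00872). PHF19, an accessory subunit that binds methylated histones, fell by 2.64 (adjusted p = 0.0233).

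Cancer-testis antigens are germline genes often silenced by DNA methylation in other tissues, and most did not pass the test in the GCB lines. Only SYCP3 rose among 22 measured, beside 1.72% of all elements, and 0 fell. At least 2-fold higher in both lines were 7 of them, beside 6.8% of named genes. MAGEA4 went from 8.33 to 14.6 in SUDHL4 and from 8.64 to 14.22 in SUDHL6, a similar change in both lines (SD 0.48). Its change of 5.93 had a standard error of 1.8, taken from the spread of all 11 lines (adjusted p = 0.0926 from limma). In the other 9 lines the change of MAGEA4 ranged from -0.66 to 9.36, and 16 of the 22 genes rose by the test. MAGEC2, at 8.51 and 8.11 in SUDHL4 and at 8.4 and 7.84 in SUDHL6, changed by -0.47 ± 0.74, below the 0.39 to 4.31 of the other 9 lines. Several MAGE and GAGE genes have nearly identical copies that can bind the same element.

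**Figure D3:**
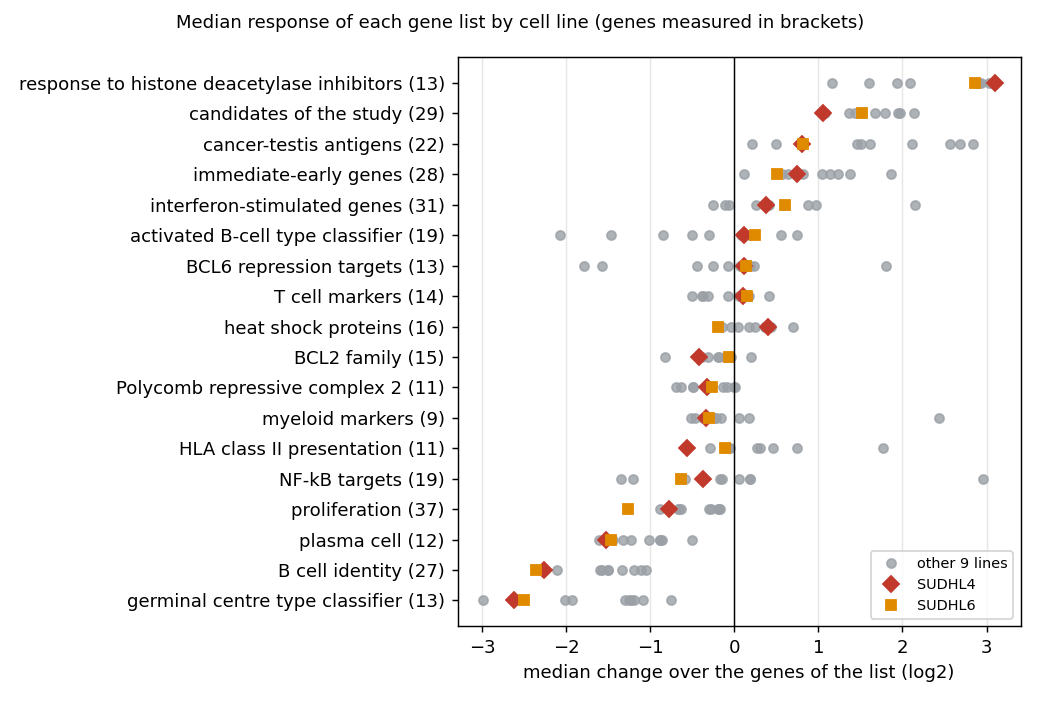
Median change after aza/TSA (log2) over the measured genes of each list, with 1 point per line: SUDHL4 as red diamonds, SUDHL6 as orange squares and the other 9 lines in grey. The medians of both GCB lines lie below those of the other lines for B cell identity (-2.27 and -2.36) and inside the range of the other lines for the germinal centre type classifier (-2.62 and -2.50).

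Of the 566 elements that rose in the GCB lines, 513 (90.6%) were also called higher in the other 9 lines, and 585 (89.9%) of the 651 that fell were also called lower. In each direction, 2 elements were called in the opposite direction in the other lines. These overlaps follow in part from the common fit, in which both groups share 1 estimate of the spread. Fold changes line by line gave a less uniform picture. Of the 1771 elements at least 2-fold higher in both GCB lines, 877 (49.5%) were also at least 2-fold higher in 6 or more of the other 9 lines, 237 in all 9, and 267 (15.1%) in at most 1. Of the 1902 elements at least 2-fold lower, 768 (40.4%) were lower in 6 or more, 175 in all 9, and 298 (15.7%) in at most 1. The mean share of the other lines that changed the same way was 56.4% for higher and 51.3% for lower elements. This order turned with median scaling of the arrays (49.2% and 57.3%). As the base rate, a single other line had 3955 to 5601 elements at least 2-fold higher and 3958 to 5920 lower, of all 32878. Both mean shares are well above that rate. The elements were first selected as changed in both GCB lines, and the excess was not compared with that of other pairs of lines. It is therefore not read as a trait of the GCB lines.

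Single lines shared between 46.6% (HLY-1) and 62.4% (BL41) of the elements higher in both GCB lines, and between 42.4% (ROS50) and 61.4% (BL41) of those lower. The ABC lines, which are of the same lymphoma entity, shared 53.3% (OciLy3), 53.8% (OciLy10) and 46.6% (HLY-1) of the higher elements. Of the lower elements they shared 51.3%, 52.1% and 48.5%, so none of them was closest to the GCB lines by this measure. These shares were not adjusted for the number of elements each line changed, which was largest in BL41 (5601 higher and 5920 lower). By correlation, K422, with the fewest changed elements (3955 and 3958), was closest to SUDHL6 (r = 0.44) and SUDHL4 (r = 0.377). The response of SUDHL6 across all elements correlated with the mean response of the other 9 lines at r = 0.581 and that of SUDHL4 at r = 0.497. For each of the other 9 lines against the rest of them, r was 0.424 to 0.613.

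**Figure D4:**
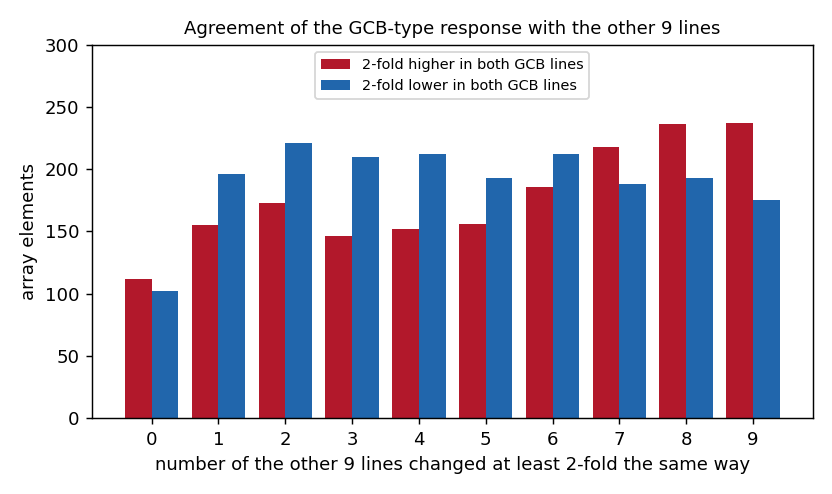
Number of array elements at least 2-fold higher (red) or lower (blue) in both GCB lines, by how many of the other 9 lines (x axis) changed at least 2-fold the same way. The red bars are tallest at 7, 8 and 9 lines (218, 236 and 237 elements), while the blue bars vary between 102 and 221 elements without such a peak.

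No element passed the test of the difference in response between the GCB lines and the other 9 (0% of 32878). The smallest adjusted p was 0.346 from limma, 1936 elements had an unadjusted p under 0.05, and the median standard error of the difference was 0.61. Against single types, 1 element passed against the ABC lines (0.00304%), 0 against FL (0%; smallest adjusted p = 0.818, 1974 unadjusted) and 0 against BL (0%; smallest adjusted p = 0.123, 1852 unadjusted). The element against ABC was that of VPS35L, a subunit of an endosomal recycling complex. VPS35L went from 9.6 to 10.84 in SUDHL4 and from 9.0 to 10.48 in SUDHL6, while its change was -3.22 to -2.62 in the 3 ABC lines. The difference was 4.19 ± 0.40 (adjusted p = 0.0231 from limma). Each type was adjusted separately, and this comparison was not repeated under the alternative settings. Both untreated GCB values were below the array median and below all other 9 lines (9.97 to 12.26). VPS35L was lower after treatment in all 9 other lines (-3.22 to -0.78), but the difference from all 9 did not pass (3.37 ± 0.58, adjusted p = 0.354).

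Both GCB lines lay above the range of the other 9 responses for 679 elements (2.07%) and below it for 640 (1.95%). The genes described next were taken from these by the size of their difference relative to its error, so their order is a description, and none passes adjustment. PNMA1, a neuronal antigen gene of the PNMA family, had the smallest p. It went from 8.63 to 13.28 in SUDHL4 and from 9.58 to 14.14 in SUDHL6 (4.61 ± 0.42, adjusted p = 0.00273 for the change), against increases of 0.7 to 2.37 in the other 9 lines. The difference was 3.17 ± 0.46 (adjusted p = 0.346). Both untreated GCB values were below those of the other lines (11.07 to 14.07), while after treatment SUDHL4 lay just below the range of the others (13.44 to 15.54) and SUDHL6 inside it.

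The same arrangement was seen for ENKD1, which encodes a protein of centrosomes and microtubules. ENKD1 went from 9.11 to 12.1 in SUDHL4 and from 9.56 to 12.36 in SUDHL6 (2.89 ± 0.4, adjusted p = 0.00468), and its untreated level in the other lines was 10.57 to 12.98, above both. After treatment, the GCB lines were within the range of the other lines (11.19 to 13.69). LDHD, the D-lactate dehydrogenase of mitochondria, differed: it started at 9.4 and 9.6, inside the range of the others (9.2 to 10.51), and reached 11.7 and 13.24 (2.97 ± 0.48, adjusted p = 0.00961). LDHD in treated SUDHL6 lay above the treated values of all other 9 lines (9.25 to 11.73), and SUDHL4 lay just inside them.

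NGEF rested on 1 line. It went from 8.68 to 15.18 in SUDHL4 but only from 9.06 to 10.24 in SUDHL6, and the other 9 lines changed by -0.20 to 0.85. BTN3A3, a butyrophilin, was nearly level in the GCB lines (10.78 to 11.38 and 11.05 to 10.62) and lower in all 9 others (-2.18 to -1.06). The remaining genes above the range were OXT, MROH8, BMPR1B and TMEM257, with differences of 1.79 to 2.7, all with an adjusted p of 0.73.

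Below the range, ZNF318, a zinc finger gene required for IgD expression in mouse B cells, went from 13.19 to 10.03 in SUDHL4 and from 15.11 to 10.71 in SUDHL6 (-3.78 ± 0.51, adjusted p = 0.00453 for the change). The other 9 lines changed by -1.7 to 0.79 (difference -3.19 ± 0.57, adjusted p = 0.373). MAPK10, the kinase JNK3, went from 14.55 to 12.27 and from 13.95 to 10.46 (-2.88 ± 0.53, adjusted p = 0.014). Both untreated GCB values of MAPK10 were above all other lines (7.27 to 13.16), in which it changed by -0.66 to 1.69.

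SLAMF1, a receptor of lymphocyte activation also called CD150, went from 11.9 to 8.11 in SUDHL4 and from 12.81 to 8.08 in SUDHL6 (-4.26 ± 0.8, adjusted p = 0.0147), against -2.86 to 2.02 in the others. MED24, a Mediator subunit, fell by 3.23 (adjusted p = 0.00326) and was lower in all 9 other lines too (-1.93 to -0.58). EHMT2, the histone H3 lysine 9 methyltransferase G9a, went from 10.35 to 8.7 and from 11.27 to 10.08, a change that did not pass (-1.42 ± 0.39, adjusted p = 0.067), while the other lines changed by -0.38 to 1.18. MICB, a stress ligand of the NKG2D receptor of natural killer cells, was at 13.21 and 12.32 in SUDHL4 and at 13.23 and 12.72 in SUDHL6. It was higher after treatment in all 9 other lines (0.58 to 2.07), so the 2 groups did not overlap, but the difference did not pass (-1.94 ± 0.43, adjusted p = 0.73). GPR82, SYDE1, PRAM1 and C8orf82 complete the 10 genes below the range, with differences of -3.11 to -1.83.

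**Figure D5:**
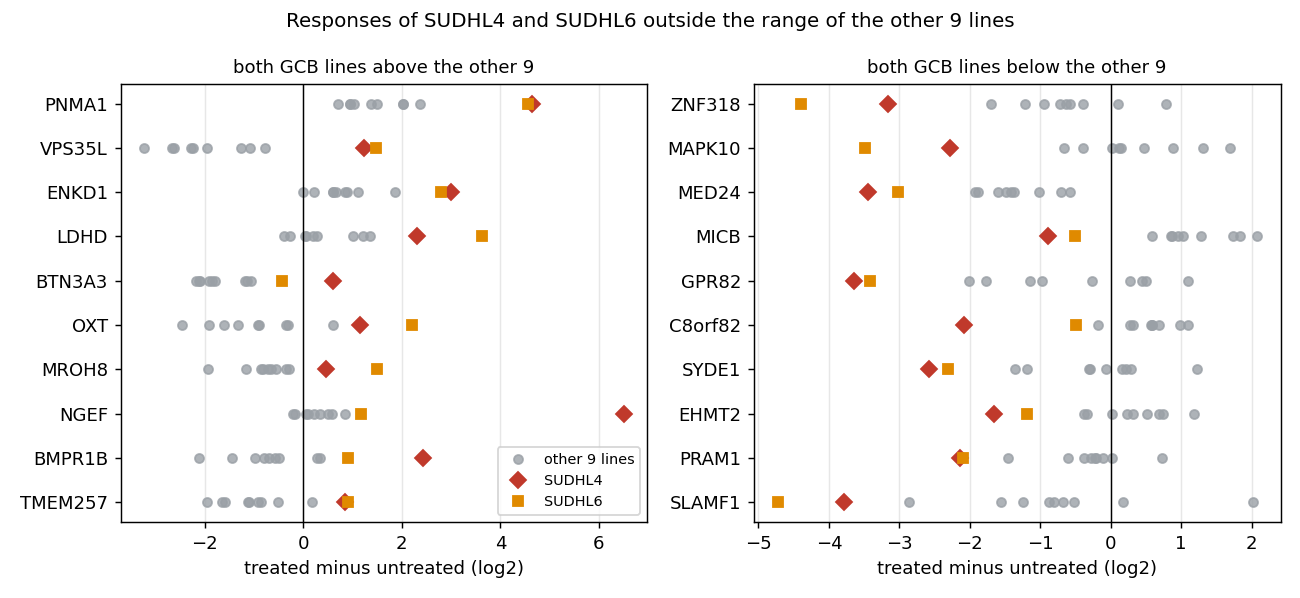
Change after aza/TSA (treated minus untreated, log2) of 10 genes for which both GCB lines lay above the other 9 lines and of 10 for which both lay below them, with 1 point per line. SUDHL4 (red diamonds) and SUDHL6 (orange squares) do not overlap the other lines (grey) because the genes were chosen so; none of the 20 differences passed adjustment over all elements.

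A minority of the elements outside the range also had an untreated level outside it, a larger share than of all elements. Of the 679 elements above the range, 99 (14.6%) had an untreated level in both GCB lines below all other 9 lines, against 1.91% of all elements, and 105 (15.5%) had a treated level above all of them, against 1.88%. Of the 640 elements below the range, 116 (18.1%) started above all other lines (2.12% of all elements) and 60 (9.38%) ended below them (1.69%). A change and the levels it is computed from share the same arrays, so these shares are descriptions.

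The study selected candidates for DNA methylation by an increase in most of the 11 lines and in comparison with normal B cells, so their direction in these samples is not independent evidence. Of the 29 candidates measured, 2 rose in the GCB lines and 1 fell, beside 1.72% and 1.98% of all elements, while 25 rose in the other 9 lines. At least 2-fold higher in both GCB lines were 12 candidates, beside 5.39% of all elements and 6.8% of named genes. DUSP1, a phosphatase of MAP kinases, went from 10.74 to 13.04 in SUDHL4 and from 10.34 to 12.88 in SUDHL6 (2.42 ± 0.49, adjusted p = 0.0212 from limma). TMED2, a protein of vesicle transport, went from 15.12 to 16.32 and from 13.79 to 15.63 (1.53 ± 0.37, adjusted p = 0.0397). The brightest element of RCC1L, a mitochondrial ribosome assembly factor, fell by 1.75 (adjusted p = 0.0129), and its other element changed by -0.37. FOS, a subunit of the transcription factor AP-1, went from 10.49 to 13.36 and from 11.35 to 12.73, 2.13 on average, below the mean of 5.15 in the other lines, which ranged from 2.45 to 7.51.

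None of the 7 candidates that the study carried to quantitative methylation analysis passed the test in the GCB lines. By methylation-specific PCR, the study scored the promoters of PPP1R14A and FZD8 as methylated in both GCB lines. DSP was scored as methylated in SUDHL4 and partially methylated in SUDHL6. KCNH2, KLF9, MTSS1 and NR4A2 were scored as partially methylated in both. How these scores relate to the expression changes was not tested. PPP1R14A, an inhibitor of myosin phosphatase, was at 10.26 and 9.49 in SUDHL4 and at 8.38 and 8.57 in SUDHL6 (-0.29 ± 0.62, adjusted p = 0.872). It was higher after treatment in all 9 other lines (0.32 to 2.77), so both GCB lines lay below them (difference -1.8 ± 0.69, unadjusted p = 0.0224, not past adjustment). KLF9, a Krüppel-like transcription factor, was below the array median on all 4 arrays (8.83 and 8.25 in SUDHL4, 8.08 and 8.04 in SUDHL6) and changed by -0.32 ± 0.85. The nuclear receptor NR4A2 changed by 0.14 and the desmosome protein gene DSP by 0.22, each below 2-fold in both lines.

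MTSS1, FZD8 and KCNH2 changed at least 2-fold in a single GCB line. The cytoskeletal regulator MTSS1 was at 8.59 and 8.52 in SUDHL4 and went from 8.42 to 10.34 in SUDHL6. FZD8, a Wnt receptor, went from 7.52 to 10.77 in SUDHL4 and from 8.38 to 8.58 in SUDHL6. The potassium channel gene KCNH2 was at 12.89 and 12.67 in SUDHL4 and went from 7.87 to 11.84 in SUDHL6, so that the treated SUDHL6 level approached the level that SUDHL4 had in both conditions. The second element of KCNH2 gave a mean change of -0.92.

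SUDHL4 and SUDHL6 also differed from each other, as other pairs of lines did. They had 751 elements past 2-fold in opposite directions, against 488 to 1314 (median 951.5) in pairs of the other 9 lines. The genes with the largest opposite changes, chosen by that difference and therefore described without a test, included CSF2RA, a subunit of the GM-CSF receptor, which went from 10.69 to 6.6 in SUDHL4 and from 8.75 to 11.97 in SUDHL6. LHX6, a homeobox gene, went from 11.47 to 8.07 in SUDHL4 and from 8.37 to 11.51 in SUDHL6. NLRP7, a member of the NLR family, went from 8.28 to 10.76 in SUDHL4 and from 16.58 to 13.82 in SUDHL6. JAM2, an adhesion molecule, went from 8.17 to 11.32 and from 12.13 to 9.71. In CSF2RA, LHX6, NLRP7 and JAM2, the line with the higher untreated level was the one that fell. The choice of genes favours this, because the line that fell had to lie above the array median before treatment. The other genes so chosen are not described.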

How the data were processed

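Gene expression was measured on the Applied Biosystems Human Genome Survey Microarray, a 1-colour chemiluminescence array. Intensity values of 32878 elements on 22 arrays, linear and not normalized, were deposited by the authors. Their second file holds log2 values from ABarray and, as deposited, equals these intensities after quantile normalization to within 5.0e-09. It was neither filtered nor centred, and was used here. The labels name Trizol and the NanoAmp kit and the methods the AllPrep kit and the Chemiluminescent RT-IVT kit, so the extraction is unsettled. Groups came from the labels, lymphoma types and doses from the methods, and 0 columns were unmapped. Arrays give no counts, and their number limits the precision.

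Gene names came from the platform annotation, brought up to date by RefSeq: 17073 have 1 gene (15461 genes), 139 several and 15666 none. Where a gene has several elements, the one with the highest mean stands for it. Treated minus untreated differences of the 11 lines were fitted with limma 3.58.1 in R 4.3.3 (lmFit, eBayes, two-sided tests, p-values adjusted over all elements by Benjamini-Hochberg with a threshold of 0.05), with a coefficient for the GCB lines and one for the other 9. Single values were compared by exact permutation over lines (scipy 1.17.1). Treated and untreated arrays pair because they are from the same line. Their deviations from the group means correlated at 0.36 to 0.58, against at most 0.18 with any other line.

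Named genes were the 10 largest increases and decreases among detected genes that passed and were 2-fold changed in both lines, 10 above and 10 below the other lines, the 5 largest opposite changes each way, up to 3 members per list that passed, and the 7 genes of the methylation analysis. Detected means above the array median in both GCB lines in the higher condition. For the opposite changes this was read as the higher condition of each line, a reading chosen after the data were seen. Genes above and below the other lines were to pass the test of the difference. None did, so they were ranked by moderated t among those outside the range. The members and lists were chosen with earlier results of these data known. The fit was tested on simulated data. The alternatives were median scaling, no normalization, only detected elements (6 or more arrays above their median), dim values raised to the 25th percentile, no replicate block, a variance trend, low-range arrays as a block, fold thresholds of 1.5 and 3, only lines in RPMI medium, averaging all elements of each gene, and leaving out lines.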

Additional observations from a re-analysis of the deposited data

Results flagged for a closer look

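For 3 of the 20 genes chosen for lying outside the range, both GCB lines changed in the direction opposite to all 9 other lines. The difference in response was 3.37 for VPS35L and 1.79 for MROH8, which were higher after treatment in both GCB lines and lower in all 9 others, and -1.94 for MICB, which was lower in both GCB lines and higher in all 9 others. None of the 3 differences passed adjustment (adjusted p = 0.354, 0.73 and 0.73 from limma). Opposite signs were also found for 3 genes of the fixed lists, with differences of -2.14 for MAGEC2, a cancer-testis antigen lower in both GCB lines and higher in the others, and of 1.13 for BCL2L2 and 0.47 for SUZ12, both higher in the GCB lines and lower in the others (adjusted p = 0.832, 0.791 and 0.869). MAGEC2 and BCL2L2 were at or below the array median in at least 1 GCB line in both conditions. The other elements of MROH8 gave GCB changes of -0.55 and 0.73, against 0.98 for the brightest. Of all genes on the array that have a name, 49 (0.317%) had such opposite signs, 26 of them detected, and 18 of these 26 were higher in the GCB lines.

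Single lines stood apart from the other members of their group in 2 of the 42 groups of 9 lines examined, where chance marks about 1 in 20 groups. The change of PTPRC was -5.62 in BL41 and -3.07 to -1.48 in the other 8 lines of that group, close to SUDHL4 and SUDHL6 (-4.40 and -5.08). The change of SLC38A5 was 0.30 in K422 and -3.99 to -1.97 in the rest. The causes were not tested.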

How the results depend on the processing

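The counts of calls in the GCB lines depended on the setting more than the sizes of the changes did. Against 566 higher and 651 lower elements, 372 and 879 were called with median scaling, 234 and 432 with no normalization, 1043 and 1314 among detected elements only, 1099 and 1276 with a variance trend, and 1080 lower with a floor at the 25th percentile. Median scaling and no normalization shifted the median change of all elements to -0.07 and -0.11 in the GCB lines and to -0.18 and -0.06 in the others. Of the 1251 calls with median scaling, 977 were also among the main ones. Leaving out 1 line gave 6 to 630 higher and 1 to 737 lower elements, the lowest without SUDHL4 (3 of 7 calls shared) and then without SUDHL6 (58 and 51). Without HLY-1, OciLy10 and SUDHL4, 4 rose and 0 fell. A line left alone is assumed to vary like the others. With no replicate block, when the pairing of the arrays of a line is ignored, 30 rose and 24 fell, all 54 of them among the main calls.

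For the difference from the other 9 lines, a variance trend called 1 element (PNMA1, adjusted p = 0.032), leaving out HLY-1, OciLy10 and SUDHL4 called 4, and leaving out 1 line called 0 to 5 (4 without SUDHL4, 5 without SUDHL6). At 1.5-fold and 3-fold, 3701 and 699 elements were higher and 4153 and 645 lower in both lines. The mean share of other lines changed the same way was 56.4% for higher and 51.3% for lower elements. It was 49.2% and 57.3% with median scaling, which turned the order, 61.3% and 55.2% with a floor and 64.4% and 58.3% among detected elements. Leaving out 1 line gave 32.8% to 57.6% and 30.7% to 52.5%, the lowest with 1 GCB line left. No count of elements changed in both lines exists without one of them.

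Without SUDHL6 and without SUDHL4, the change was -0.67 and 0.94 for NR4A2, -0.28 and 0.73 for DSP, -0.07 and 1.92 for MTSS1, -0.22 and 3.97 for KCNH2, and -0.77 and 0.19 for PPP1R14A, which was also 0.19 without the 3 lines. KLF9 was at 0.11 with low-range arrays as a block. Over all alternatives, named changes in the GCB lines kept direction and call in 1006 cases, lost the call in 284 and reversed in 7. Averaging all elements of each gene, 8 in place of 5 responders to histone deacetylase inhibitors, 6 in place of 2 candidates, 10 in place of 6 proliferation genes and 5 in place of 3 plasma cell genes were called in the direction given. Without SUDHL4, no gene of any list passed, and without SUDHL6, 2 responders to histone deacetylase inhibitors, 1 cancer-testis antigen and 1 candidate rose and no other gene of a list passed. The causes were not tested.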

Other observations

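Of 37 measured proliferation genes, 6 fell in the GCB lines, 1 rose and 30 were not called, while 1.98% of all elements fell and 1.72% rose. The median change was -0.78 in SUDHL4, inside the -0.88 to -0.17 of the other 9 lines, and -1.27 in SUDHL6, below it. The mitotic kinase PLK1 went from 15.44 to 13.15 in SUDHL4 and from 15.57 to 12.35 in SUDHL6 (-2.75 ± 0.66, adjusted p = 0.0392 from limma). MYBL2, a transcription factor of cycling cells, went from 14.82 to 13.27 and from 16.3 to 14.11 (-1.87 ± 0.4, adjusted p = 0.026), below the -1.55 to -0.12 of the other lines. The cyclin CCNA2 (-1.95) and the replication licensing genes MCM5 (-1.76), CDT1 (-1.61) and MCM3 (-1.27) also fell. The exception was TK1, thymidine kinase, which went from 15.19 to 17.23 and from 16.52 to 17.77 (1.64 ± 0.35, adjusted p = 0.0247) and was higher after treatment in all 9 other lines.

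Of 28 immediate-early genes, 1 rose (DUSP1) and 1 fell, against 1.72% and 1.98% of all elements, the background for the next lists too. The one that fell was MYC, from 17.86 to 15.04 in SUDHL4 and from 17.49 to 14.31 in SUDHL6 (-3.0 ± 0.68, adjusted p = 0.0321), and it was lower in all 9 other lines (-4.85 to -1.6). IER3 went from 9.28 to 13.96 and from 10.88 to 14.63 without passing (4.21 ± 1.13, adjusted p = 0.0605). Of 16 heat shock genes, 3 rose and 0 fell. Beside BAG3 and HSPA2, HSPA1A, an inducible HSP70 gene with a nearly identical paralog, went from 8.54 to 12.35 and from 8.8 to 15.5 (5.25 ± 1.09, adjusted p = 0.0229). Of 31 interferon-stimulated genes, 2 rose and 0 fell: IFI6 went from 9.32 to 13.66 and from 9.1 to 13.51 (4.38 ± 0.79, adjusted p = 0.0132), and IFIT2 rose by 3.6 at the edge of the threshold. OAS2, an antiviral synthetase, went the other way, from 11.95 to 8.64 and from 13.64 to 12.55 (-2.2 ± 0.69, adjusted p = 0.103).

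Single elements set 1 GCB line apart when the other was left out, and were chosen for that. NOX4, an NADPH oxidase, changed 9.23 ± 0.83 more in SUDHL6 than in the 9 lines (adjusted p = 0.00285 from limma, SUDHL6 being a single line), and NGEF 6.25 ± 0.50 more in SUDHL4 (adjusted p = 0.00172). WFIKKN2 changed by -6.27 ± 0.67 in SUDHL4 relative to the 9 lines (adjusted p = 0.0132).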
